A study of Homo sapiens with 22 samples.

Results

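Of the 238017 sequence tags read in a pool of luciferase reporter plasmids, 211385 had at least 100 counts in both libraries of input DNA, and 478 of these (0.226%) stood below the level of the pool in both lung cancer lines. These low reporters were chosen by their measured activity, which is log2 of tag TPM in RNA plus 0.5 over tag TPM in input DNA plus 0.5, minus the median of the library. TPM is the count of a tag as a share of its library's total, scaled as in the deposited tables. A value of 0 is therefore the typical tag. A low reporter had a mean activity of at most -0.4, or 0.758 times the typical tag, over the 10 RNA libraries of each line, with each of the 2 inputs as denominator. Since activity chose them, their activities are given below as a description.

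Plasmids were introduced into 2 established human lung cancer lines, A549 (adenocarcinoma) and H520 (squamous cell carcinoma). DMSO was set against 10 µM benzo(a)pyrene (BaP), a tobacco smoke hydrocarbon that activates the aryl hydrocarbon receptor, with an exposure of 18 h for A549 but 42 h for H520. The 4 groups had 5 transfections each, and each line had 1 input library. The sample titles mark the inputs v1 (A549) and v2 (H520), and the meaning of these marks was not established here. RNA libraries held 177.6 to 371.4 M counts, and the inputs 333.5 M (A549) and 265.8 M (H520). All groups carried the reporters on transfected plasmids, outside the cells' own chromosomes, and the libraries hold reporter tags alone, so no marker gene of either line could be checked. The labels do not say that transfections came from separate cultures, so spreads and p-values cover these samples only. Which cloned fragment each tag marks was not used here, so tags are the unit throughout, and several tags may share a fragment.

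In such an assay each plasmid carries a candidate regulatory fragment and a tag that ends up in the reporter's transcript, and RNA over DNA reads how much of that transcript is recovered. The tag is itself part of the RNA, where its letters can be read by the machinery that splices, cuts, binds or degrades RNA. A 5′ splice site, the start of an intron, is recognised by U1 small nuclear RNA through base pairing. Its vertebrate consensus on the sense strand is AG at the end of the exon followed by GTAAGT at the start of the intron.

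The 5 lowest of the low reporters with at least 500 counts in both inputs are printed because all hold GGTAAGT, in capitals, the run that the lowest of the group had in common. Tags are written as deposited, 5′ to 3′, with 12 variable letters and a fixed ggc at the end, and the names are given here for ease of reference. The deposited strand is the same for all tags, and the sources used here do not say whether it is the sense strand of the transcript. Motifs were searched in all 15 letters, so the fixed ones count, and a match is a description of letters, not a site or a cause. The reporter sequence around the tag is not known here.
alpha: GGTAAGTaagcgggc
beta: GGTAAGTaattcggc
gamma: atcaGGTAAGTaggc
delta: GGTAAGTcgttaggc
epsilon: GGTAAGTtacggggc

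Alpha had the lowest mean activity of all 478, -1.6 over both lines. It took up 14.7 TPM of the A549 input (95% Clopper-Pearson interval 14.3 to 15.2) and a like share of the H520 input (14.6 to 15.5 TPM), where intervals cover counting error only. In RNA it stood at 3.5, 3.7, 3.34, 3.35 and 4.38 TPM in A549 with DMSO, and at 3.17, 2.94, 4.89, 4.03 and 4.4 TPM with BaP. In H520 it stood at 4.61, 3.65, 4.51, 4.09 and 4.81 TPM with DMSO, and at 5.34, 4.34, 4.62, 4.47 and 4.46 TPM with BaP. All 20 RNA values lay far under both input values, and the DMSO and BaP values overlapped in each line. TPM, here and below, is not centred on the library median as activity is, and without centring 3022 tags met the rule. A fall in TPM is thus not the distance from the typical tag, which activity gives. Alpha's activity was -1.65 in A549 and -1.55 in H520, which is 0.319 and 0.342 times the typical tag.

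Beta had 9.1 TPM (8.78 to 9.43) and 10.2 TPM (9.79 to 10.6) in the inputs against 2.2 ± 0.507 TPM (SD, n = 5) in A549 with DMSO and 3.01 ± 0.183 TPM in H520 with DMSO. Gamma, in which 4 letters come before the run, had 9.73 TPM and 8.96 TPM in the inputs against 2.48 ± 0.127 TPM (SD, n = 5) in A549 with DMSO and 2.64 ± 0.37 TPM in H520 with DMSO. Delta and epsilon had mean activities of -1.48 and -1.46. These 5 tags had 4 to 6 G or C letters among the 12 variable ones, at or below the pool's median of 6. Input depths of these tags were 1876 to 4916 counts.

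GGTAAGT was held by 217 of the 211385 tags (0.103%) and by 109 of the 478 low reporters (22.8%). Of all 217 tags with the run, 50.2% were low reporters, beside 0.226% of the whole pool. Their median activity was -0.67 in A549 and -0.59 in H520, and 194 (89.4%) lay below 0 in both lines, against 28.4% of all tags. The reverse complement, ACTTACC, was held by 367 tags, of which 0 were low reporters and whose medians were -0.03 and -0.03. The low level was seen in the deposited orientation and not in its reverse complement. Among 6105 runs of 7 letters held by at least 50 tags, GGTAAGT had the lowest median activity, -0.66 over both lines. AGGTAAG, which overlaps it, was next at -0.42 and TAGGGGG followed at -0.24, while the lowest 1% of runs began at -0.16. The run was singled out after its values were seen, so these ranks carry no test.

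The level of all 217 GGTAAGT tags was below 0 in every RNA library. Their median activity in A549 was -0.69, -0.69, -0.75, -0.66 and -0.62 with DMSO and -0.74, -0.68, -0.57, -0.63 and -0.59 with BaP. In H520 it was -0.59, -0.59, -0.61, -0.63 and -0.58 with DMSO and -0.54, -0.59, -0.64, -0.6 and -0.58 with BaP. The 20 values kept to a narrow band, and DMSO and BaP overlapped in both lines. Of the 109 low reporters with the run, 88 were at or under -0.4 in each of the 20 libraries taken singly, as were 141 of all 478.

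Tags that differed from GGTAAGT by a single letter stood much nearer to the pool. Of the 21 possible changes, 15 occurred in the pool, in 21 to 457 tags each, and their median activities ran from -0.17 to 0.1 in A549 and from -0.17 to 0.12 in H520. Of these 15 variants, 7 were held by 0 low reporters, a count to be read beside the pool's 0.226%. At that share, a count of 0 would often arise for so few tags. The second letter of the run was changed in 3 of the 7. GATAAGT had 0 of 242 tags with an A549 median of -0.02, while GCTAAGT had 0 of 330 with -0.01, and lastly GTTAAGT had 0 of 270 with -0.05. The other 4 were GGTTAGT with 0 of 161 tags, then GGTAACT with 0 of 188, then GGTAATT with 0 of 190, and finally GGAAAGT with 0 of 21. With a changed last letter, GGTAAGC had 11 low reporters of 217 tags, GGTAAGA 4 of 102 and GGTAAGG 7 of 339. GGTAGGT had 4 of 81 and the lowest A549 median of these variants, -0.17. Changing the leading G gave AGTAAGT with 2 of 187 and CGTAAGT with 4 of 457. The remaining variants were GGTACGT with 6 of 327 and GGTAAAT with 1 of 163. GGTGAGT, the other common donor sequence, was carried by 0 tags, since the pool holds no tag with GTGAG.

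Letters around the run went with its level as well. AGGTAAGT had 21 low reporters of 29 tags with medians of -0.95 in A549 and -0.94 in H520, CGGTAAGT had 46 of 111 with -0.52 and -0.47, and TGGTAAGT had 5 of 29 with -0.43 and -0.3. With the full consensus CAGGTAAGT the count was 10 of 14 and the medians -1.1 and -0.94. Of these 14, 12 lay below 0 in both lines. The highest mean activity among them, 1.67, was also the highest of all 217 GGTAAGT tags. Where the run opened the tag, so that the letter before it is not known here, 37 of 48 were low reporters, with medians of -1.02 and -1.08. From the second to the sixth letter as its start, the counts were 28 of 53, 21 of 35, 7 of 25, 9 of 29 and 7 of 27. By the letter after the run, tags with A had the lowest level, with 48 low reporters of 72 tags and medians of -0.85 and -0.93, and those with G the highest, with 7 of 27 and -0.4 and -0.34. All 27 of the latter are tags whose run ends at the fixed ggc, so the place of the run and the letter after it cannot be told apart there.

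The other 108 GGTAAGT tags did not meet the rule. Their medians were -0.37 and -0.31, 85 lay below 0 in both lines, and 28 missed the limit in only 1 of the 4 values (2 lines by 2 inputs). Only 6 were above 0 in both lines. The highest value was 1.49 in A549 and 2.06 in H520, in different tags. Of the 108, 2 were at or above 1 in either line, beside 4100 of all 211385 tags. The run was thus also found in reporters well above the pool. A further 14 tags with the run were listed in an input but had too few counts.

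The remaining 369 low reporters were shallower. By library, those without GGTAAGT had a median of -0.51 ± 0.05 (SD over 5 libraries) for A549 DMSO and -0.58 ± 0.02 in H520 with DMSO, where those with it had -0.97 ± 0.09 and -0.93 ± 0.01. All 24 tags at or under -1 in all 4 values carried GGTAAGT. Among the rest, 41 held GTAAG in other settings, out of 4135 such tags (0.992%), whose medians were -0.04 in A549 and -0.03 in H520. The lowest values among the 41 were -1.05 in A549 and -1.05 in H520, which need not be the same tag. Read on the other strand, as CTTAC, the same letters were held by 3 low reporters among 3565 tags.

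A second set of 121 low reporters held TAGG without GTAAG, where the fixed ggc counts as part of the run. TAGG is common in the pool: 25160 such tags had medians of -0.06 in A549 and -0.09 in H520, and 0.481% were low reporters. Among longer runs, TAGGTGG had 20 low reporters of 417 tags, with medians of -0.16 in A549 and -0.22 in H520. The run TAGGGGG had 11 of 258, with -0.16 and -0.36, and the run TAGGAGG had 9 of 263, with -0.08 and -0.19. UAGG is a core of RNA motifs bound by hnRNP A1, a splicing repressor. The deepest of the low reporters belonged to this set.
zeta: atattggctTAGGgc

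Zeta is shown because its 7890 and 6077 input counts give the most precise single values. It held 23.7 TPM (23.1 to 24.2) of the A549 input and 22.9 TPM (22.3 to 23.4) of the H520 input. Its RNA values were 14.0, 14.6, 15.5, 14.7 and 12.9 TPM in A549 with DMSO and 14.1, 14.0, 13.7, 13.8 and 14.0 TPM in H520 with DMSO. Every one lay under both inputs, in TPM that is not centred, and zeta's activity was -0.48 in A549 and -0.62 in H520.

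Base composition set low reporters apart from the pool as well. G and C made up 33.3% of the variable letters in the median low reporter, and the mean was 36.04% against 47.72% in the pool. Tags with 2 G or C letters of 12 were low reporters in 64 of 2229 cases (2.87%), those with 3 in 99 of 11976 (0.827%), those with 4 in 104 of 30820 (0.337%), and those with 6 in 62 of 52872 (0.117%). At 8 the count was 11 of 19226 (0.0572%), at 9 it was 1 of 5478, and at 10 it was 0 of 624. The share of low reporters fell at each step of G and C content up to the richest tags.

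The typical activity of all tags moved with composition too, and more in H520. Median activity rose from -0.15 at 2 G or C letters to 0.02 at 10 in A549, and from -0.33 to 0.15 in H520. Across all 211385 tags, Pearson's r of G and C number with activity was 0.083 in A549 and 0.275 in H520, over tags that share libraries, inputs and amplification. Tags with 2 or 3 G or C letters were thus lower as a whole, and the part of composition in the low reporters' level was not tested. Among the 478 the relation was turned, with r of -0.326 and -0.252, in a set where the GGTAAGT tags were both lowest in activity and richer in G and C. The GGTAAGT low reporters had 4 to 8 G or C letters, and all 217 GGTAAGT tags still had a median difference of -0.64 from tags of the same composition.

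The low reporters with the fewest and the most G and C letters are shown as the ends of this range.
eta: tatactatgattggc
theta: acgcccgTAGGgggc

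Eta, with 2 G or C letters of 12, had activities in A549 with DMSO of -0.55, -0.63, -0.25, -0.35 and -0.61, and in H520 with DMSO of -0.94, -1.01, -1.03, -1.04 and -0.86. It was lower in H520, and the DMSO values of the lines did not overlap. Theta, with 9, had -0.55 ± 0.19 (SD, n = 5) in A549 with DMSO and -0.51 ± 0.19 in H520 with DMSO, which overlapped. Letter by letter, C was the scarce base, at 13.8% of the variable letters of low reporters and 24.7% in the pool, while G was at 22.3% and 23.0%, but at 19.6% in the low reporters without GGTAAGT. A was at 31.0% and 25.8%, and T at 32.9% and 26.4%. The dinucleotide TA was in 99.0% of low reporters and 72.4% of tags, and CG in 62.3% and 88.3%. GTAAG and TAGG both contain TA, and these shares were not compared at matched composition.

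Other motifs of the list are given by the number of low reporters among the tags that hold them, to be read beside the pool's 0.226%. ATTAAA, a polyadenylation signal variant, was held by 2 low reporters of 540 tags, and on the other strand (TTTAAT) by 2 of 513. ATTTA, the pentamer of AU-rich decay elements, was held by 13 of 1811 (0.718%), with a median difference of -0.01 from tags of the same composition, and its reverse TAAAT by 15 of 2716. GCGTG, the core of the response element of the aryl hydrocarbon receptor, was held by 2 of 1201, and CACGC by 0 tags. TGANTCA, the AP-1 site, which reads the same on both strands, was held by 1 of 132. CAGG was held by 30 of 11879 (0.253%) and CCTG by 2 of 3072, ATG by 57 of 41347 (0.138%) and CAT by 19 of 25169, GGGGG by 16 of 2152 (0.743%), a run of 4 or more G by 41 of 12320 (0.333%), and CCGGAAG (157 tags), CTTCCGG (55) and TGACGT (909) by 0. The pool held 0 tags with the polyadenylation signal AATAAA, the Pumilio motif TGTANATA, the donor core GTGAG, the restriction sites GGTACC of KpnI and TCTAGA of XbaI, the E-box CACGTG, or a run of 4 or more A, C or T in the deposited orientation, so these could not be read.

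By the rule for short runs, the 5 runs of 6 letters with the largest ratio of their share among low reporters to their share in the pool were GGTAAG (27.4% against 0.414%), GTAAGT (25.1% against 0.473%), AGGTAA (6.49% against 0.145%), AAGTAT (7.53% against 0.319%) and TAAGTA (14.0% against 0.649%). All overlap GGTAAGT or its edges. Of the 36 low reporters with AAGTAT, 22 also held GGTAAGT.

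Matches to microRNA seeds were counted since a microRNA binds a transcript through bases 2 to 8 of its own 5′ end. Among 446 seed matches held by at least 50 tags, from 2370 mature human microRNAs in RefSeq (GRCh38.p14), 314 were held by 0 low reporters. That count is to be read beside the pool's 0.226%, at which a run held by few tags would often have 0. GGTAAGT itself matches the seed of hsa-miR-9898. The next highest share belonged to ATAAGCT, the match to miR-21-5p, an abundant microRNA in many tumours, and to miR-590-5p, with 12 low reporters of 231 tags (5.19%). The mature sequence of miR-21-5p is given with its seed in capitals.
hsa-miR-21-5p: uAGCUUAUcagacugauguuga

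Tags with the full match followed by A, ATAAGCTA, had 12 low reporters of 167 and medians of -0.25 in A549 and -0.17 in H520, with a median difference of -0.16 from tags of the same composition. With ATAAGCT but another letter after it, the count was 0 of 64 and the difference from the same composition was 0.0. TAAGCTA without the leading A and without GTAAG had 3 of 234 and a difference of -0.08, and TAAGCT alone had 0 of 106 and -0.0. These differences are small beside GGTAAGT, and were read after the seed counts were seen. At the pool's 0.226%, a count of 0 is also usual for so few tags.

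The set depended on the use of both inputs. With the A549 input alone 2977 tags were at or under -0.4 in both lines, and with the H520 input alone 2112. Only 16.1% of the former and 22.6% of the latter were low with both. Tags low with the A549 input only had a median log2 ratio of A549 to H520 input TPM of 0.42, those low with the H520 input only had -0.35, and the 478 had -0.01. GGTAAGT was held by 0.92% and 1.22% of the tags that were low with a single input, and by 22.8% of those low with both. These sets were split by the values in the rule, so the input ratios follow from it and the shares are a description.

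The measurement was also repeated across libraries, in a split added after seeing the data. All these libraries and both inputs are in the rule, and GGTAAGT was singled out from them, so the counts are a description and no independent support. Choosing with the DMSO libraries and the A549 input gave 3055 tags, and of these 449 (14.7%) were again at or under -0.4 in both lines with the BaP libraries and the H520 input. For the 133 chosen tags with GGTAAGT the share was 81.2%, with medians of -0.8 in A549 and -0.84 in H520, and for the 2922 others it was 11.7%, with medians of -0.13 and -0.27. The reads are repeat measurements of the same tags.

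The low reporters had more input reads than the pool, with medians of 1878 and 1488 counts against 1284 and 1031. The pseudocount draws shallow tags toward 0, and the part of depth in the choice was not tested. Of the 478, 123 had another low reporter 1 base away. Alpha, for instance, at -1.6, had 3 such neighbours, at -1.35, -1.18 and -0.96.
alpha neighbour: GGTAAGTacgcgggc
alpha neighbour: GGTAAGTaatcgggc
alpha neighbour: GGTAAGTaagccggc

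A further close pair, GGTAAGTccataggc and GGTAAGTccgtaggc, stood at -1.45 and -1.36. Such neighbours share the run. Since 467 of the 478 had some tag of the pool 1 base away, close neighbours were the norm, and 4 lay beside a tag with 10 or more times their A549 input count.

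Tags lay close together on both sides of the limit. The 3 low reporters nearest to it, tagtatatcgcgggc, TAGGtcctttagggc and gtataacgaaTAGGc, had a largest value of -0.4002, -0.4005 and -0.4005. The 3 nearest outside, gcgcatagaaTAGGc, aatagtcgatatggc and cgtacggTAGGgggc, had -0.3998, -0.3996 and -0.3995. Of the 478, 302 had at least 1 of their 4 values between -0.5 and -0.4.

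The low level was much alike in both lines. The difference, A549 minus H520, had a median of 0.04 and an SD of 0.17 among the 478, with 183 lower in A549 and 295 lower in H520, while all tags had a median of 0.0 and an SD of 0.39. Both line means are in the rule, which limits how far they can part. Among GGTAAGT low reporters, 60 were lower in A549 and 49 in H520. In the low-G-and-C set without GTAAG or TAGG, 35 were lower in A549 and 86 in H520, the direction in which all tags of that composition leaned.

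A line difference over 0.5 was found in 7 of the 478, with and without GGTAAGT. Differences of that size were more common in the pool. Over all tags the percentiles p5 and p95 of the difference, A549 minus H520, were -0.53 and 0.57, beside -0.25 and 0.33 among the 478. Shown here are the 2 tags with the largest difference in each direction among those with at least 500 counts in both inputs, all of which hold the run. Iota and kappa were lower in A549, and lambda and omega in H520.
iota: GGTAAGTtactgggc
kappa: caGGTAAGTccaggc
lambda: aGGTAAGTatcgggc
omega: ataacGGTAAGTggc

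Kappa had activities of -1.45, -1.56, -1.76, -1.37 and -1.34 in A549 with DMSO and -1.02, -1.01, -0.88, -1.03 and -0.99 in H520 with DMSO. Omega had -0.99, -0.86, -0.84, -0.81 and -0.81 in A549 with DMSO and -1.43, -1.77, -1.51, -1.67 and -1.66 in H520 with DMSO. The lines did not overlap in either, in opposite directions. Iota stood at -1.2 in A549 and -0.7 in H520, and lambda at -0.95 and -1.58. These tags were picked for their difference, so it is described only.

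No low reporter was called as changed by BaP in either line, a contrast that the rule did not use. By edgeR's quasi-likelihood test with Benjamini-Hochberg adjustment over all tags tested, 0 of the 478 were called in A549, where 0.0% of 223066 tags were called in either direction, and 0 of 478 in H520, where 0.0% of 223732 tags were. At an unadjusted p under 0.05, 3 were higher and 5 lower with BaP in A549, beside 1.18% and 1.42% of all tags. In H520 these counts were 12 and 10, beside 2.36% and 2.35%. The A549 count of 8 moved with the library left out. Its lowest value was 6 (1.26%, beside 2.09% of all tags), without the third BaP transfection. It was 26 (5.44%, beside 3.6% of all tags) without the fifth DMSO transfection and 27 (5.65%, beside 2.78%) without the fourth BaP transfection. It was 14 (2.93%, beside 3.06%) without the second DMSO transfection and 13 (2.72%, beside 2.54%) without the first BaP transfection. The H520 count of 22 ran from 14 (2.93%, beside 4.3%) without the second BaP transfection to 26 (5.44%, beside 4.65%) without the first DMSO transfection. The median log2 fold change was -0.001 in A549, with 90% of low reporters between -0.14 and 0.14, and 0.0 in H520, with 90% between -0.16 and 0.14. DESeq2 called 0 of the 478 in A549. In H520 it called 11 tags in all, 0 of them low reporters, of which its filter adjusted only 4.

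The smallest p in A549 belonged to ggtacgtatggaggc, which holds the variant GGTACGT, and whose log2 fold change was 0.18 (SE 0.06, edgeR adjusted p = 1). It stood at 3.57, 3.93, 3.32, 3.81 and 3.52 TPM with DMSO and at 4.27, 4.3, 4.16, 3.86 and 3.73 TPM with BaP, and the groups overlapped. In H520 it was agGTAAGcgtagggc, at -0.28 (SE 0.1, edgeR adjusted p = 0.998), with 1.76, 1.81, 2.02, 1.78 and 2.17 TPM with DMSO and 1.72, 1.46, 1.43, 1.67 and 1.55 TPM with BaP. Its highest BaP value, 1.72, lay just under its lowest DMSO value, so the groups did not overlap. The same tag had the smallest p for the difference of the BaP responses of the lines, at -0.38 (SE 0.14, edgeR adjusted p = 1).

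All 217 GGTAAGT tags, low or not, were divided as follows. In A549, 148 (68.2%, beside 49.3% of all tags) had a log2 fold change above 0, the median was 0.036, and 9 were higher and 1 lower at an unadjusted p under 0.05. In H520 95 (43.8%, beside 111760 of the 223732 tags tested) were above 0, the median was -0.013, and 4 were higher and 4 lower. By edgeR 0 of the 217 were called in either line. These tags were read in the same libraries and are not replicates of a treatment, so the counts by sign are a description. By library, the mean activity of the 217 in A549 was -0.666 ± 0.048 (SD, n = 5) with DMSO and -0.633 ± 0.087 with BaP. In H520 it was -0.604 ± 0.019 and -0.615 ± 0.027. As a set, the 478 had a mean activity of -0.633 ± 0.043 (SD, n = 5) with DMSO and -0.636 ± 0.091 with BaP in A549, and of -0.677 ± 0.018 and -0.677 ± 0.023 in H520. By library, their median in A549 ranged from -0.62 to -0.5 with DMSO and from -0.68 to -0.46 with BaP, and in H520 from -0.63 to -0.59 and from -0.63 to -0.57. The treatments overlapped in each line, and the A549 transfections were the more spread. The difference of the BaP responses of the lines, where exposure times differed, was called by edgeR's line by treatment term for 0 of the 478 and for 0.0% of 222669 tags. At an unadjusted p under 0.05, 6 of the 478 had a higher and 7 a lower BaP response in H520, beside 1.81% and 1.65% of all tags.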

How the data were processed

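Tags were amplified from cDNA of polyadenylated RNA, or from plasmid DNA per the labels' protocols, which describe no molecular identifiers. The submitters' processing notes name bcl2fastq. The sources used here do not say how reads were matched to tags. As the file headers show, the authors deposited for each tag a count (Depth), the library total and a TPM value. Recomputed from every file, counts summed to the total and TPM was the count over that total, scaled with no length term. Tags that a library did not list were set to 0. Tags are synthetic and have no genome position.

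Members and lists were chosen with earlier results of these data known. Readings of GGTAAGT and of its variants, of TAGG, of runs of 7 letters and of seeds were added after tag values were seen. Named tags were the 5 lowest at 500 or more input counts, the lowest, the deepest, those nearest the limit, those with extreme line difference or G and C content, that with the smallest BaP p in each line, and the lowest pairs 1 base apart. Activities in the text are means over both inputs.

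BaP was tested with edgeR 4.0.16 (TMM, filterByExpr, robust quasi-likelihood) on tags with at least 10 counts in the line's input, or in both for the lines' difference. On simulated counts with 200 tags changed at each fold, edgeR called 37.5% of 1.25-fold, 84% of 1.5-fold and 96.5% of 2-fold changes over 223068 tags in A549, and 56.5%, 90% and 98% over 223729 tags in H520. The changed tags were drawn from those with higher counts, and simulated tags varied independently of each other. Real libraries can share deviations across tags, so these shares may not hold for them. Replicate libraries had Pearson r of 0.971 to 0.995 across tags, and no pair was a copy (chi-square of at least 3.84 per degree of freedom). Alternatives changed the pseudocount, input minimum, input, centring, limit, libraries, normalization, filter, tool and block.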

Additional observations from a re-analysis of the deposited data

Results flagged for a closer look

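Among 28 groups of 5 libraries searched (the level of the low reporters, the level of all GGTAAGT tags, and tags alpha to epsilon), 3 held a library far from the other 4, where chance marks about 1 in 20. Alpha, GGTAAGTaagcgggc, had an activity of -1.39 in the fifth A549 transfection with DMSO, above the others at -1.85 to -1.72. The same tag had -1.32 in the first H520 transfection with BaP, above the others at -1.58 to -1.51. Delta, GGTAAGTcgttaggc, had -1.21 in the fourth H520 transfection with DMSO, above the others at -1.44 to -1.39. All 3 values remained under -1.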

How the results depend on the processing

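The number of low reporters, 478, depended on how the rule was set, and the cause was not tested. It was 845 with a pseudocount of 0.1 TPM and 318 with 1 TPM. It was 2977 with the A549 input alone, 2112 with the H520 input alone, 1246 with each line against its own input, and 3022 without centring. Limits of -0.3, -0.5 and -1 gave 1728, 176 and 24. The share holding GGTAAGT was 14.3% with the pseudocount of 0.1 TPM, 30.8% with 1 TPM, 4.4% without centring, and 7.29%, 52.3% and 100% at the limits of -0.3, -0.5 and -1. Leaving out each of the 20 libraries in turn gave 437 to 522. The median G and C content, 33.3%, was 41.7% with the A549 input alone and at limits of -0.5 and -1. The other 5 settings, an input minimum of 10 or 500 counts, DMSO or BaP libraries alone and the median over libraries, gave 402 to 516. The tags low in both reads of the split added after seeing the data numbered 449.

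BaP calls in H520 over all tags were 0 with edgeR, 11 with DESeq2 and 150 with the transfection number as a replicate block. None of these calls was a low reporter. The labels do not say that the numbers mark pairs. Same-numbered libraries deviated together at r over 0.1 in 3 of 5 pairs in A549 and 1 of 5 in H520. That r ran from -0.015 to 0.493 in A549 and from 0.044 to 0.159 in H520. With the block, 19 low reporters (3.97%, beside 4.0% of all tags) in A549 and 28 (5.86%, beside 4.81%) for the lines' difference had an unadjusted p under 0.05, against 8 and 13 without it. BaP calls in A549, calls of the lines' difference and calls among low reporters were 0 in each alternative run, leaving out single libraries included where that was run, for BaP within each line. Each input was a single library, so the error between inputs of a line was not measured.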
